A study of Arabidopsis thaliana with 11 samples.

Results

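The prenylated Rab acceptor (PRA1) genes were followed across flowers, stems and leaves of Arabidopsis thaliana on Affymetrix ATH1 arrays. Members were the probe sets paired with a single gene whose symbol begins with PRA1. or with PRA and a digit, and with a deposited signal of at least 100 in at least 3 of the 11 arrays. Of the 22810 probe sets in the table, 11 were paired with a single such gene and 10 met the signal minimum, each for a different gene. They were PRA1.B1, PRA1.B4 and PRA1.B6 of subfamily B, PRA1.E, the F subfamily genes PRA1.F1, PRA7 and PRA8 (PRA1.F2 and PRA1.F3 in the gene table), PRA1.G2, PRA1.A1 and PRA1.H. The probe set left out was PRA1.G1 (AT1G55640), which reached 100 on 2 arrays. Its deposited signal was 20.0, 37.9, 12.7 and 50.3 in flowers, 46.3, 23.6, 27.8 and 19.9 in stems, and 62.3, 108.8 and 131.8 in leaves. The members closest to the minimum, PRA1.G2 and PRA1.H, reached 100 on 10 arrays each, and the other 8 members reached it on all 11. The gene table lists 19 PRA1 genes, and the 8 with no probe set of their own in the platform's annotation are not members. PRA1.F4 is among the 8, and the probe sets it shares with AT3G13700 are given at the end.

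Rab GTPases direct vesicles between the compartments of the secretory and endocytic pathways. They carry a prenyl lipid that anchors them in a membrane, and a soluble dissociation inhibitor (GDI) takes them out of it between rounds. PRA1 proteins are small proteins with several membrane-spanning stretches that bind prenylated Rab GTPases. The mammalian and yeast relatives have been linked to the release of Rabs from GDI at the target membrane. Plants have a larger family than animals or yeast, in subfamilies named by letter, and its proteins lie on the endoplasmic reticulum, the Golgi apparatus and endosomes.

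All plants were wild type, accession Columbia-0. Flowers (4 arrays, developed flowers and unopened buds) and stems (4 arrays, the upper 2 inches, freed of siliques and pedicels) were taken on day 29 after germination, and expanding leaves (3 arrays) on day 15. They were kept in a greenhouse (5 arrays) or a growth chamber (5 arrays) with days of 25 °C and nights of 20 °C, and for stem replicate 4 the title and the protocol name different sites. The labels also give each array a factor that scales its GapC gene signal to 8500. For stem replicates 2 and 3 these factors match each other's column, and so do those of flower replicates 2 and 3. Each such pair holds a growth chamber and a greenhouse array by the labels. Whether factors or columns were exchanged is not known, so the sites of these arrays are uncertain. Flower and stem RNA was passed over a silica column after Trizol and leaf RNA was not, so that organ, age and RNA preparation cannot be told apart in any comparison with leaf. Nothing states how the replicates of an organ were drawn from the plants. Each organ has arrays from both sites, so their spread, which the p-values of the organ comparisons measure, includes any difference between sites. Within a site the spread may be technical. Each array pools all cell types of the tissue taken, for stems only the upper 2 inches. Fewer cells of a type and less RNA per cell cannot be told apart in it.

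The organ labels were set against markers. All 5 flower markers with a probe set (ATA27, AMS, EMS1, AT5G07230 and PLIM2a) were called higher in flowers than in stems and leaves. All 3 stem markers (IRX15, IRX15-L and GUT2) were called higher in stems than in leaves and lower in flowers than in stems. All 5 leaf markers (RCA, PRK, SBPASE, HPR and LHCB4.1) were called lower in flowers than in leaves, but none was called between stems and leaves (median log2 fold change -0.49 in stem versus leaf). In flower versus stem HPR was called lower (-1.10) and the other 4 lay between -0.87 and -0.77, each with an adjusted p under 0.05 (median of the 5 -0.87). The median of the PRA1 members in that comparison was -0.95, and the part of green tissue in it was not tested. The lowest correlation between arrays of the same organ was 0.904 across probe sets, and the highest between organs was 0.824. The ratio of 3' to 5' signal of the actin control, a sign of RNA degradation, was 3.22 to 8.23 in flowers, 2.67 to 12.2 in stems and 1.83 to 3.29 in leaves. The highest values were in stem replicate 3 (12.2) and flower replicate 3 (8.23).

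Values below are normalised intensities: the deposited signal after quantile normalisation over the 11 arrays. Differences were fitted with limma on log2(intensity + 32) over the 17526 probe sets with enough signal, and a difference was called at a Benjamini-Hochberg adjusted p under 0.05 and an absolute log2 fold change of at least 1. All 10 members were tested. Levels are compared between organs for the same probe set and never between genes.

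PRA1.B4, PRA1.B6 and PRA8 were called higher in stem than in both flower and leaf, which held for 4.31% of all tested probe sets. In stem versus leaf 3 of the 10 members rose and 0 fell, beside 18.7% of all tested probe sets called in either direction, 9.33% higher and 9.33% lower. In flower versus stem 0 rose and 5 fell, beside 18.0% called in either direction, 9.86% called higher and 8.10% called lower. In flower versus leaf 0 of 10 were called, beside 18.4% of all probe sets in either direction, 9.17% higher and 9.27% lower. There 2 members had an unadjusted p under 0.05 (PRA1.E and PRA1.G2). The median log2 fold change of the members was 0.52 in stem versus leaf (all probe sets -0.04), -0.16 in flower versus leaf (all -0.02) and -0.95 in flower versus stem (all -0.03). None (0 of 10) was called lower in stem than in both other organs (2.51% of all probe sets), or lower in flower than in both (2.11%). The mean was highest in flower for PRA1.B1, in stem for 8 members and in leaf for PRA1.H, beside 30.8%, 34.3% and 35% of all tested probe sets. Of those 8, PRA1.G2, PRA1.A1, PRA1.F1 and PRA7 overlapped with leaf and did not pass the test against it. With the arrays scaled to GapC, a gene of glycolysis used for scaling per the labels, 5 members were called higher in stem than in leaf, beside 21.3% of all tested probe sets, and 3 lower in flower than in stem, beside 6.62%. That scaling raised the median of all probe sets in flower versus leaf by 0.72 log2 units and turned the sign of 8 members there, none of them called. The arrays with the highest 3'/5' ratios, stem replicate 3 and flower replicate 3, were also left out. Then 2 members were called higher in stem than in leaf, beside 9.50% of all tested probe sets. In flower versus stem 3 were called lower, beside 8.29%.

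**Figure D1:**
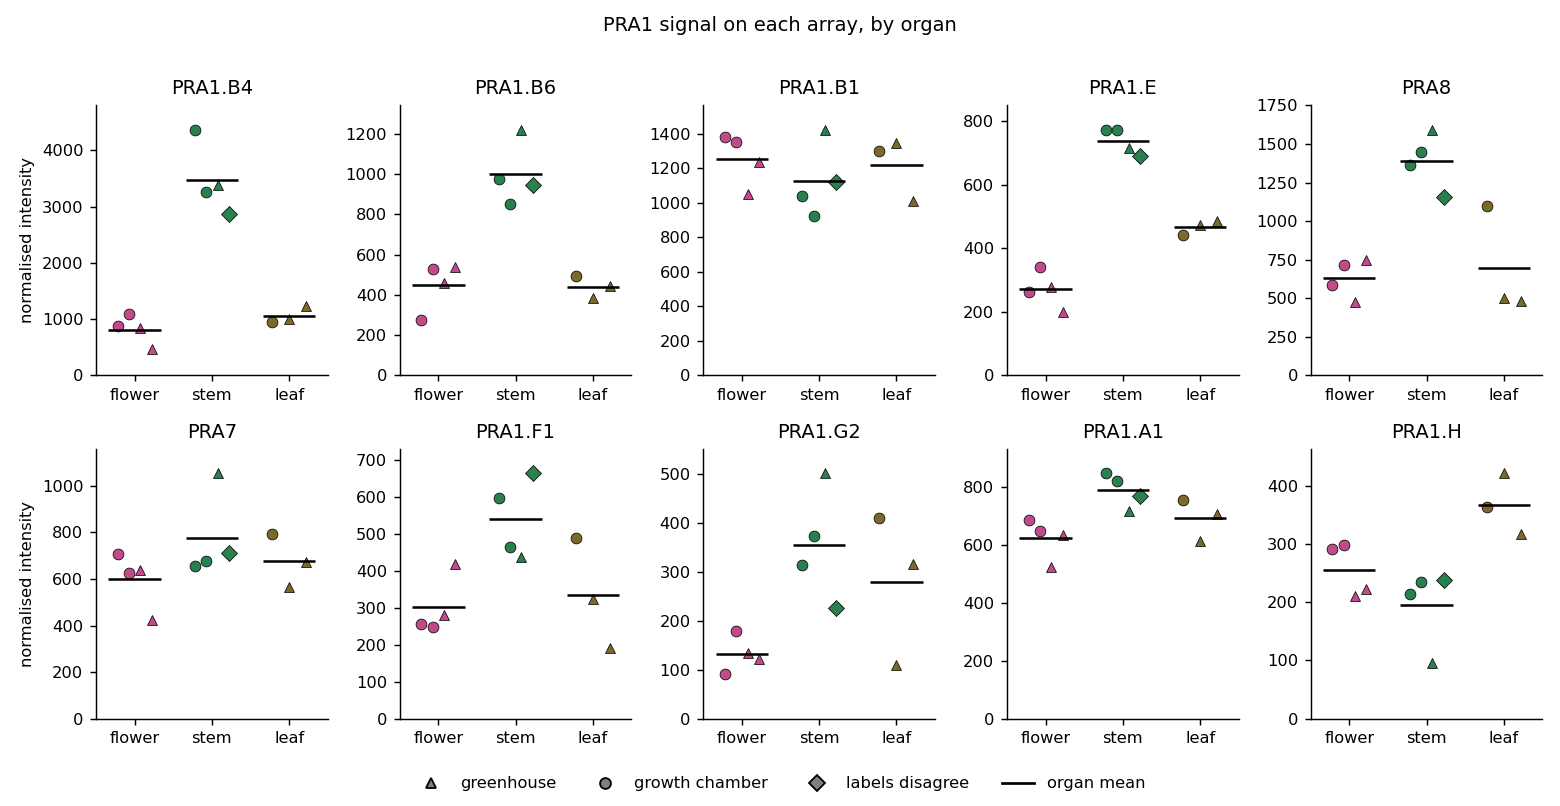
Normalised intensity (y axis, linear, from 0) of the 10 PRA1 probe sets in flower (4 arrays), stem (4) and leaf (3). Each point is an array, its shape gives the growth site and the black line is the organ mean. The stem points of PRA1.B4, PRA1.B6, PRA1.E and PRA8 lie above all flower and leaf points of the same gene, and stem replicate 3 stands apart for PRA1.H (95) and PRA7 (1055).

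Subfamily B held the largest organ difference among the members, that of PRA1.B4, and also a gene with none called. PRA1.B4 (AT2G38360) had an intensity of 867, 1087, 830.2 and 462 in flowers, 4365, 3258, 3374 and 2868 in stems, and 939, 990.3 and 1238 in leaves. Every stem array lay far above every other array, while flowers and leaves overlapped. The gene was 3.20-fold higher in stem than in leaf (log2 1.68 ± 0.24 SE, adjusted p = 1.32e-04). In flower it fell by 2.10 log2 units relative to stem (4.27-fold, ± 0.22 SE, adjusted p = 8.75e-06). Among all tested probe sets 4.09% had a larger positive stem versus leaf difference, and 1.42% lay lower in flower versus stem. Flower versus leaf was -0.42 (95% confidence interval -0.94 to 0.10, adjusted p = 0.215). The differences had the same sign at both sites, where they were not tested and the greenhouse stem and the growth chamber leaf are 1 array each. Stem minus leaf was 1.58 log2 units in the greenhouse and 1.97 in the growth chamber, and flower minus stem was -2.38 and -1.92.

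PRA1.B6 (AT5G07110), whose protein in Arabidopsis cells holds back transport out of the endoplasmic reticulum when overproduced, had 272, 529.5, 459 and 539.8 in flowers, 974, 852, 1222 and 948 in stems, and 496, 384 and 442 in leaves. All stem arrays lay above all others, and flowers and leaves shared the same range. Stem was 2.17-fold above leaf (log2 1.12 ± 0.22 SE, adjusted p = 0.00142), and in flower the gene fell by 1.13 log2 units relative to stem (± 0.20 SE, adjusted p = 7.36e-04). The flower versus leaf difference was -0.01 (interval -0.48 to 0.47). Stem minus leaf was 1.499 in the greenhouse and 0.84 in the growth chamber. The flower versus stem call ended without flower replicate 1, the lowest array (-0.93), and with GapC scaling (-0.99).

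PRA1.B1 (AT3G56110) had 1381, 1353, 1049 and 1239 in flowers, 1040.5, 925, 1424 and 1121 in stems, and 1299, 1345 and 1012 in leaves. The 3 organs overlapped throughout. Its log2 fold changes were -0.12 in stem versus leaf (interval -0.50 to 0.26), 0.05 in flower versus leaf (-0.33 to 0.42) and 0.16 in flower versus stem (-0.19 to 0.51), with adjusted p of 0.655, 0.877 and 0.480. All 3 signs turned under another scaling: the stem value was 0.47 with GapC scaling, and the flower values were -0.26 and -0.17 with median centring.

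Whether members of a subfamily moved differently was tested on the log2 difference between genes within each array, with exact two-sided permutation tests over arrays for 6 pairs and 3 contrasts. PRA1.B4 exceeded PRA1.B1 in its stem versus leaf change by 1.79 log2 units, and PRA1.B6 exceeded PRA1.B1 by 1.24. In flower versus stem the same pairs differed by -2.26 and -1.29. The arrays of the 2 organs did not overlap in any of these 4 cases. Each had an exact permutation p = 0.0286, the smallest that 35 or 70 arrangements allow, and an adjusted p of 0.103 over the 18 tests. An adjusted p under 0.05 would need most of the 18 tests to reach that smallest p. The adjusted p therefore cannot decide whether these pairs differ. Between PRA1.B4 and PRA1.B6 the stem versus leaf changes differed by -0.56 (PRA1.B6 minus PRA1.B4, exact p = 0.0571, adjusted p = 0.147).

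PRA1.E (AT1G08770), the only member of its subfamily, was the member whose 3 organs stood fully apart. It had 261, 342, 278.5 and 198 in flowers, 773, 773, 717 and 691 in stems, and 441, 474 and 486 in leaves. No array of an organ reached the range of another, and the order was stem, leaf, flower. In flower it fell by 1.37 log2 units relative to stem (2.59-fold, ± 0.16 SE, adjusted p = 2.07e-05). Stem versus leaf was 0.63 (± 0.17 SE, adjusted p = 0.0129) and flower versus leaf -0.75 (± 0.17 SE, adjusted p = 0.00478). Both of these passed the p threshold but not the minimum fold and were not called. With GapC scaling stem versus leaf was called (1.20) and flower versus leaf turned to 0.05. Flower minus stem was -1.49 in the greenhouse and -1.28 in the growth chamber.

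**Figure D2:**
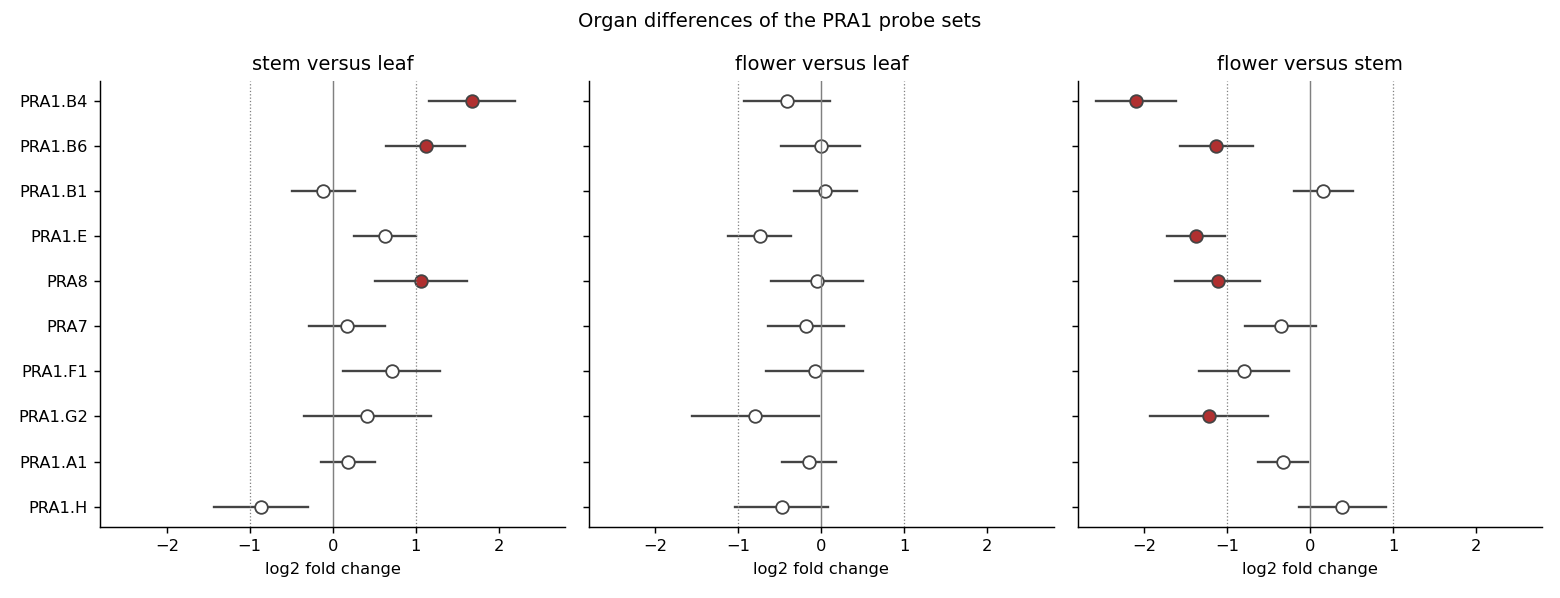
Log2 fold change (x axis) of each PRA1 probe set in the 3 organ comparisons, with 95% confidence intervals from limma. Filled red points are called, and dotted lines mark the minimum fold. Filled points lie right of 0 in stem versus leaf for 3 genes and left of 0 in flower versus stem for 5, and the flower versus leaf panel has none.

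PRA1.B4 and PRA1.E also varied together once the organ means were removed, largely through flower replicates 2 and 4. Over the 11 arrays, which share their RNA and scaling for both genes, Pearson's r of the log2 values was 0.935, and 0.906 after each organ's mean was removed. Flower replicate 4 was the lowest array for both genes (462 and 198) and flower replicate 2 the highest flower array for both (1087 and 342). In stems PRA1.E varied little (691 to 773) while PRA1.B4 ran from 2868 to 4365. PRA1.B4 and PRA1.B6, both called higher in stem, had r = 0.819 over the arrays but -0.19 with the organ means removed. These are descriptions of 11 arrays in 3 clusters and were not tested.

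**Figure D3:**
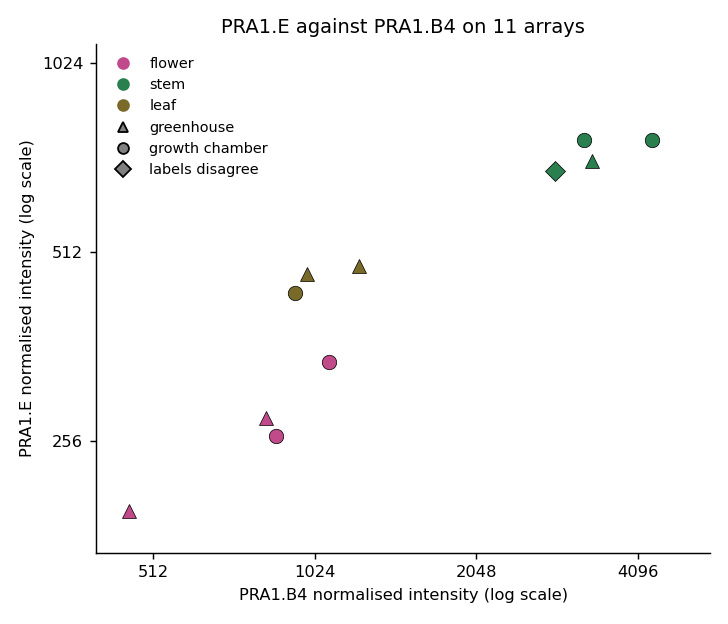
Normalised intensity of PRA1.E (y axis) against PRA1.B4 (x axis), both on log scales, for 11 arrays coloured by organ and shaped by growth site. Stem arrays lie at the upper right, and flower arrays lie below leaf arrays on the PRA1.E axis while overlapping them on the PRA1.B4 axis.

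In subfamily F, PRA8 was called, and the other members PRA7 and PRA1.F1 were not. PRA8 (AT3G13720) had 585, 714.5, 472 and 749 in flowers, 1362, 1446, 1592.5 and 1153 in stems, and 1100.3, 500.3 and 482 in leaves. Stem arrays were the highest, but leaf replicate 1, the growth chamber leaf, came close to the lowest of them, and the other 2 leaf arrays lay in the flower range. PRA8 was 2.09-fold higher in stem than in leaf (log2 1.06 ± 0.26 SE, adjusted p = 0.00576), and in flower it fell by 1.11 log2 units relative to stem (± 0.24 SE, adjusted p = 0.00246). The stem versus leaf fold was near the minimum, and the call ended without leaf replicate 2 (0.88), leaf replicate 3 (0.86) or stem replicate 3 (0.98) and with a pseudocount of 100 (0.98). Stem minus leaf was 1.64 in the greenhouse and 0.34 in the growth chamber, where the leaf is a single array. Flower minus stem was -1.37 and -1.08 at those sites. Without stem replicate 3 and flower replicate 3 together, the arrays with the highest 3'/5' ratios, the call against flower ended too (-0.92).

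PRA7 (AT1G55190) had 707, 624, 639 and 422 in flowers, 658, 677, 1055 and 710.1 in stems, and 795, 565 and 672 in leaves, with the organs overlapping. Its log2 fold changes were 0.17 in stem versus leaf (interval -0.29 to 0.63), -0.18 in flower versus leaf (-0.64 to 0.28) and -0.35 in flower versus stem (-0.78 to 0.07), with adjusted p of 0.575, 0.564 and 0.183. PRA1.F1 (AT1G17700) had 257, 248, 279.8 and 417 in flowers, 596, 464, 438 and 663 in stems, and 487.5, 323 and 192 in leaves. Its stem arrays lay above its flower arrays and overlapped the growth chamber leaf. The differences were 0.71 in stem versus leaf (adjusted p = 0.0584) and -0.79 in flower versus stem (adjusted p = 0.0249), neither called. Without leaf replicate 1 stem versus leaf was called (1.00). The stem versus leaf change of PRA8 exceeded that of PRA7 by 0.89 log2 units (exact permutation p = 0.0286, adjusted p = 0.103), and that of PRA1.F1 by 0.35 (exact p = 0.314, adjusted p = 0.471).

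The remaining members come from subfamilies G, A and H. PRA1.G2 (AT5G56230) had 91.7, 179, 135 and 122 in flowers, 314, 373, 502 and 227 in stems, and 409.9, 109.8 and 317 in leaves. Flowers lay below stems on every array, while the leaf arrays spread over both ranges. In flower the gene fell by 1.21 log2 units relative to stem (2.32-fold, ± 0.33 SE, adjusted p = 0.0111). Flower versus leaf was -0.80 (adjusted p = 0.109) and was called without leaf replicate 2, the lowest leaf array (-1.28). The call against stem ended with GapC scaling (-0.93), trimmed mean scaling (-0.95) and a pseudocount of 100 (-0.95), and without stem replicate 3 and flower replicate 3 together (-1.06, adjusted p = 0.0569). Flower minus stem was -1.73 in the greenhouse and -1.21 in the growth chamber.

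PRA1.A1 (AT5G02040) varied little, with 689, 649, 524 and 634 in flowers, 849, 822, 719.7 and 772 in stems, and 755, 614 and 709.6 in leaves. Stems lay above flowers without overlap and leaves spanned both. The flower versus stem difference was -0.33 (interval -0.63 to -0.03, adjusted p = 0.0827), stem versus leaf was 0.18 (adjusted p = 0.383) and flower versus leaf -0.15 (adjusted p = 0.507).

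PRA1.H (AT4G27540) had its lowest mean in stem, as did PRA1.B1, and its highest in leaf. It had 291, 299, 210.2 and 223 in flowers, 214, 234, 95 and 238 in stems, and 364, 422 and 317 in leaves. Every leaf array lay above every stem and flower array, and stem replicate 3 was far below the other 3 stems. Stem versus leaf was -0.87 (± 0.26 SE, adjusted p = 0.0197), short of the minimum fold, and -0.61 without stem replicate 3 (adjusted p = 0.0248). With growth site as a covariate, in a fit that also left out stem replicate 4, it was -1.12 and was called, and without stem replicate 4 alone it was -0.97. With GapC scaling it was -0.36 (adjusted p = 0.305). Flower versus leaf was -0.48 (adjusted p = 0.188) and flower versus stem 0.39 (adjusted p = 0.235).

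Arrays of the compared organs did not overlap for 5 of 10 members in stem versus leaf, 2 in flower versus leaf and 7 in flower versus stem. Among all tested probe sets this held for 39.3%, 41.9% and 33.1%, so the first count was near the background, the second below it and the third above it. Of the 10 members, 5 had at least 1 called organ difference and 5 (PRA1.A1, PRA1.B1, PRA1.F1, PRA1.H and PRA7) had none, against 66.4% of all probe sets with none.

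Among the 1331 tested probe sets with a gene symbol, those closest to PRA1.B4 in Pearson's r over the 11 arrays were IRX15 (0.949), a stem marker above and a gene needed for xylan of the secondary wall, SP1L2 (0.946), a relative of the microtubule protein SPIRAL1, and UBC16 (0.944), a ubiquitin-conjugating enzyme. IRX15 had 6.4 to 14.8 in flowers, 654 to 1695 in stems and 12.6 to 16.0 in leaves. UBC16 had a smaller range, with 201.5 to 240 in flowers, 393 to 431 in stems and 206 to 262 in leaves. Closest to PRA1.E were HCT (0.967), a lignin precursor enzyme, AGL24 (0.951), a MADS-box flowering regulator, and PMEPCRF (0.947), a pectin methylesterase. AGL24 had 80.2 to 126.9 in flowers, 336.5 to 530.5 in stems and 205.5 to 245 in leaves, in the organ order seen for PRA1.E. These values describe 11 arrays in 3 organs, and many probe sets that differ between organs have a high r.

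Genes of the surrounding pathway were looked up by list. A search by symbol found 2 Rab GTPase genes with a probe set, ARA6, an endosomal Rab, and RAB6A, a Golgi Rab. Of these 0 were called in any organ comparison, as was the case for 66.4% of all tested probe sets. Genes named here that were not called were picked after their values were seen. The largest log2 fold change of the 2 Rab genes was -0.30, for RAB6A in flower versus stem (adjusted p = 0.398). Of the 23 listed genes for the COPII coat, which buds vesicles from the endoplasmic reticulum, and for Golgi SNAREs, which fuse them, 7 had a probe set. Of these 0 of 7 were called in any comparison, beside the same 66.4% of all tested probe sets with none. Among these, YKT61, a SNARE, was at -0.73 in flower versus stem (adjusted p = 0.0019) and SEC22, a SNARE of the same route, at -0.30 (adjusted p = 0.112). The list's medians were 0.19 in stem versus leaf, -0.23 in flower versus leaf and -0.08 in flower versus stem. HVA22C, of the HVA22 family of endoplasmic reticulum proteins, was at 0.87 in flower versus stem (adjusted p = 0.00192) and was not called. It was the only probe set found for the list of proteins that shape that membrane. A list drawn up for Rab prenylation and recycling held 13 genes, of which 1 had a probe set, AT2G28390. Whether that gene acts in this step was not checked, so the step itself was not examined. AT2G28390 was not called (0.19 in flower versus stem, adjusted p = 0.502).

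Growth site was compared over the 10 arrays with a single stated site, with organ as a covariate. Sites were taken from the labels, also for the 2 stem and 2 flower arrays whose stated GapC factors match each other's columns. An exchange of sites within these pairs was not tested. For greenhouse versus growth chamber 0 of 10 members were called by limma, as were 0% of all tested probe sets, and an unadjusted p under 0.05 was found for 1 member and for 11.1% of all probe sets. That member was PRA1.H, at -0.46 log2 units (interval -0.87 to -0.05, unadjusted p = 0.0324, adjusted p = 0.415). The other 9 members lay between -0.32 and 0.20, and 9 of the 10 were negative. A difference in the site effect between organs was found for 0 of 10 members and for 0.759% of all probe sets. The lowest adjusted p was 0.247, for PRA8, and an unadjusted p under 0.05 was found for PRA8 and PRA7, beside 15.2% of all probe sets. In leaf, greenhouse minus growth chamber was -1.11 for PRA8, -0.99 for PRA1.G2 and -0.88 for PRA1.F1, in each case 2 arrays against 1. The same differences were 0.18, 0.51 and -0.25 in stem (1 array against 2), and -0.11, -0.01 and 0.40 in flower (2 against 2). For PRA8 and PRA1.F1 leaf replicate 1, the growth chamber leaf, was the highest leaf array, and the stem versus leaf values above move with it.

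**Figure D4:**
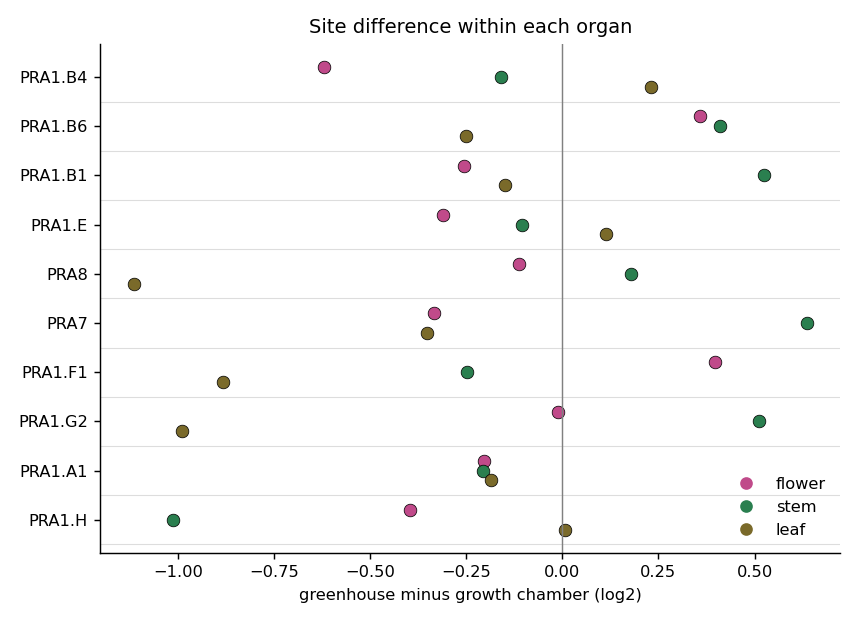
Greenhouse minus growth chamber difference in log2 intensity (x axis) of each PRA1 probe set within flower (2 arrays against 2), stem (1 against 2) and leaf (2 against 1). Leaf points of PRA8, PRA1.G2 and PRA1.F1 lie at -1.11, -0.99 and -0.88, and the stem point of PRA1.H, which rests on stem replicate 3, lies at -1.01. Sites are those of the labels, which are uncertain for some stem and flower arrays.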

How the data were processed

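Flower, stem and leaf RNA was hybridised to 11 ATH1 arrays. Per the labels, the deposited intensity values are Microarray Suite 5.0 signals, set by the authors to a target of 500. The labels also state a further scaling to a GapC signal of 8500. The deposited columns have a 2% trimmed mean of 500, so that factor is not in them. The stated factors of stem replicates 2 and 3 match each other's columns, as do those of flower replicates 2 and 3. The columns were used as labelled. Intensities were rescaled to that mean, quantile normalised and taken as log2(intensity + 32). Tested probe sets (17526 of 22810) had at least 100 in at least 3 arrays, and 64 control probe sets were left out. Limma 3.58.1 in R 4.3.3 (eBayes with trend) was fitted to all 11 arrays for organ, and to 10 for site and its interaction with organ. All tests were two-sided. Genes came from the platform's probe table, which gives 1 gene for 13513 probe sets. Names were matched to the TAIR10.1 gene table. Detection calls were not used here, so a weak value is not a statement of absence. The number of arrays limits precision.

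Named genes were all members, the 3 symbols most correlated with PRA1.B4 and PRA1.E, markers, and listed pathway genes, of which those not called are given as values. The members and lists were chosen with earlier results of these data known. The pipeline was tested on simulated data. Alternatives covered scaling, pseudocount, filter, trend, fold minimum, site, replicate block, tissues in the fit and each array left out.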

Additional observations from a re-analysis of the deposited data

Results flagged for a closer look

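Each organ group of 4 arrays was tested for an array far from the other 3 with Dixon's criterion on the log2 values, which flags about 1 in 20 groups by chance, and 20 groups were examined. It picked out 2 values, both in stem replicate 3. PRA1.H had an intensity of 95 there, against 214 to 238 on the other stem arrays. PRA7 had 1054.6 there, against 658 to 710.1. This array also had the highest actin (12.2), GAPDH (13.05) and ubiquitin (2.72) 3'/5' ratios, and the part of RNA quality in these values was not tested. It is also the single stem array with a stated greenhouse site. That site is uncertain, because the column matches the GapC factor stated for stem replicate 2, a growth chamber array by the labels.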

How the results depend on the processing

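Each organ comparison was repeated under 24 alternatives. PRA1.B4 and PRA1.B6 in stem versus leaf, and PRA1.B4 and PRA1.E in flower versus stem, were called in all of them. With GapC scaling 5 members were called in stem versus leaf and 3 in flower versus stem, beside 24.8% and 19.5% of all probe sets. With no minimum fold 5 and 1 were called in stem versus leaf and flower versus leaf, beside 34.4% and 32%. Stem replicate 3 and flower replicate 3 were left out together, a choice made after seeing the data. Then 3 were called in flower versus stem, beside 17.8%. Leaving out an array gave 2 to 4 members in stem versus leaf, 0 to 1 in flower versus leaf (the 1 is PRA1.G2, without leaf replicate 2), 4 to 5 in flower versus stem and 0 for site, where all probe sets called numbered 14 without leaf replicate 1 and 0 with it. In those fits 16.3% to 19.3% of all tested probe sets were called in stem versus leaf. The share was 16.7% to 18.8% in flower versus leaf and 17.0% to 18.8% in flower versus stem. With the replicate block the counts of members were 3, 0 and 5, beside 18.7%, 18.2% and 18.1% of all tested probe sets. The numbers pair no samples by the labels, and deviations of same-numbered arrays correlated between -0.16 and 0.15.

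GapC scaling shifted the median of all probe sets by 0.51 in stem versus leaf, 0.72 in flower versus leaf and 0.20 in flower versus stem. Relative to that median, flower versus leaf was -0.46 for PRA1.B4 and -0.65 for PRA1.E. Trimmed mean scaling shifted the flower comparisons by 0.17 (leaf) and 0.18 (stem), median centring by -0.11 and -0.12. The share of calls that were higher was 50.0% in stem versus leaf (85.7% with GapC scaling), 49.7% in flower versus leaf (89.5%) and 54.9% in flower versus stem (66.0%), and median centring gave 39.7% and 40.0% in the flower comparisons. The interaction with site called 133 probe sets, against 205 with trimmed mean scaling, 211 with median centring, 244 with GapC scaling and 67 with no filter. A sign changed in 39 of 940 member values, none of them called. With GapC scaling flower versus leaf became 0.74 for PRA1.B6, 0.54 for PRA1.A1, 0.32 for PRA1.H, 0.64 for PRA8, 0.70 for PRA1.F1, 0.52 for PRA7, 0.048 for PRA1.E and 0.23 for PRA1.B4; stem versus leaf became 0.47 for PRA1.B1, and site 0.08 for PRA1.B1 and 0.033 for PRA7. With trimmed mean scaling flower versus leaf was 0.16 for PRA1.B6, 0.052 for PRA8 and 0.15 for PRA1.F1. Median centring gave PRA1.B1 -0.26 against leaf and -0.17 against stem. Site as a covariate, without stem replicate 4, gave PRA1.B6 0.027 in flower versus leaf, the 2 arrays left out gave PRA8 0.071, and the flower arrays alone gave a site difference of 0.40 for PRA1.F1.

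With an array left out, flower versus leaf ranged from -0.10 to 0.20 for PRA1.B6, -0.25 to 0.32 for PRA8, -0.39 to 0.21 for PRA1.F1 and -0.08 to 0.13 for PRA1.B1. Stem versus leaf of PRA1.G2 ranged from -0.074 to 0.74. The site difference ranged from -0.41 to 0.20 for PRA1.G2, -0.21 to 0.08 for PRA1.B1, -0.51 to 0.004 for PRA8, -0.34 to 0.14 for PRA1.F1 and -0.34 to 0.077 for PRA7. The cause of these changes was not tested.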

Other observations

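A pair of probe sets reads PRA1.F4 and AT3G13700 together and belongs to no single gene. In the gene table PRA1.F4, AT3G13700 and PRA8 follow each other. The first had 108.9, 114.6, 124.5 and 130.2 in flowers, 227.5, 485.1, 539.6 and 443.2 in stems, and 215.5, 128.3 and 168.4 in leaves. It was higher in stem than in leaf (log2 1.13, adjusted p = 0.00449), and in flower it fell by 1.53 log2 units relative to stem (adjusted p = 2.75e-04). The second had 236.8, 165.5, 293.4 and 249.3 in flowers, 160.5, 173.5, 256.3 and 223.6 in stems, and 172.5, 198.7 and 159.7 in leaves. The organs overlapped, and its stem versus leaf and flower versus stem values were 0.16 and 0.18 (adjusted p = 0.630 and 0.526). The 2 probe sets therefore disagree on the organ difference, and which of the genes each of them reads was not tested.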
